A study of Mus musculus with 33 samples.

Results

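The genes of taurine uptake and synthesis and 3 subunit genes of the glycine receptor were followed through cultures of mouse retinal progenitor cells, of which 1 arm received taurine. The 7 genes, chosen by name, were Slc6a6, Cdo1, Csad, Ado, Glra1, Glra2 and Glrb, out of 47729 genes in the count tables, and all 7 of 7 passed the filter on low counts that left 18150 genes tested. All cells came from C57BL/6J retina at embryonic day 14. The 11 groups of 3 libraries were untreated cells at day 0, cells primed at day 0 or induced for 5, 12, 21 or 35 days towards cones with COCO protein, and cells primed at day 0 or induced for the same days towards rods with taurine and retinoic acid. The COCO protein binds and blocks ligands of the BMP, TGF-beta and Wnt pathways, and retinoic acid acts through nuclear receptors. Taurine and retinoic acid were given together in every rod group and in no other, so the effects of either alone cannot be told apart. The labels do not say how long each factor stayed in the medium, or whether replicates came from separate litters or cultures, so p-values measure the spread between these libraries, which may be technical.

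Taurine is an amino sulfonic acid that is very abundant in the retina, and mice that lack its transporter Slc6a6 lose their photoreceptors. Cells take taurine up through Slc6a6, or make it from cysteine by way of Cdo1 and Csad, or from cysteamine by way of Ado. Taurine also opens the glycine receptor, a chloride channel built of alpha subunits such as Glra1 and Glra2 with the beta subunit Glrb, which ties the channel to the scaffold gephyrin. In the neonatal rodent retina, taurine has been reported to raise rod production through receptors that contain Glra2.

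Slc6a6 lies at chr6:91684053-91759066 on the plus strand of mouse build GRCm38, as the deposited tables give it. Glra1 lies at chr11:55514238-55608198, Glra2 at chrX:165129017-165327393 and Glrb at chr3:80843599-80913660, all on the minus strand. Csad, at chr15:102176998-102189043, and Ado, a gene of 1 exon at chr10:67544512-67548955, are also on the minus strand. In the GENCODE annotation 7.26% of the exonic bases of Csad are shared with Zfp740 on the other strand, 5.84% of those of Glra1 with Gm12236 and 1.38% of those of Slc6a6 with Gm44981, and the strand setting of the counting is not given in the sources used here. RefSeq promoter sequences were matched for 4 of the 7 genes: Csad, Ado, Glra2 and Glrb. The 250 bases before the start are shown for the alpha and the beta subunit gene, because these partners of 1 receptor went separate ways in culture. Both are on GRCm38.p6, minus strand, Glra2 at chrX:165327394-165327643 and Glrb at chr3:80913661-80913910. Capitals mark matches, on either strand, to the TATA box TATAAA (read here as TTTATA) and to the GC box GGGCGG (read here as CCGCCC), which do not overlap.
Glra2: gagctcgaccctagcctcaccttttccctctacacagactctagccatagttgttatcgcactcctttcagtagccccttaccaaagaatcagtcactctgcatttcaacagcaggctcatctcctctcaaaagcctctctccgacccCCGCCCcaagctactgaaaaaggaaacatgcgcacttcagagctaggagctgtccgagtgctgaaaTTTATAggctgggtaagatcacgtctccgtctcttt
Glrb: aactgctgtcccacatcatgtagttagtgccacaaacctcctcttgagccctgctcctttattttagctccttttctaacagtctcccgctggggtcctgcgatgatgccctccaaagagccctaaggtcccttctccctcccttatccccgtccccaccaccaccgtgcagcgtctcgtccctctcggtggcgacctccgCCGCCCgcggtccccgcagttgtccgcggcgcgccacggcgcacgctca

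The Glra2 window held 1 TATAAA and 1 GGGCGG, with 50.4% G and C and 8 CpG sites. The Glrb window held 1 GGGCGG and 0 TATAAA, with 62.4% G and C and 20 CpG sites. Of 32851 promoters of the same length, 12.4% held TATAAA and 32.7% held GGGCGG, and the median G and C content was 52.4%. AGGTCA, the core hexamer that nuclear receptors such as those for retinoic acid bind, was found 0 times in both windows and in 14.0% of all promoters. These counts of letters are descriptions of the windows.

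Each library held between 7511837 and 19166442 counts in genes (median 12985662). Levels are given as CPM, edgeR's read counts scaled to library depth with TMM factors. A count of 0 allows up to 3 counts, or 0.174 to 0.407 CPM depending on the library. The labelled cell type was checked against 8 retinal progenitor markers, whose summed level was 1055 to 1117 CPM in untreated cells, with 0 of 8 markers at 0. Rod markers summed to 99.8 to 494 CPM in rod primed cells but to 4.16 to 4.77 CPM in rod cells at day 35, where Nr2e3 was at 0, and cone markers to 21.0 to 24.8 CPM in cone cells at day 35, where Opn1sw was at 0. At day 5 rod markers summed to 724 to 1639 CPM in cone cells and 254 to 733 CPM in rod cells. Cone markers summed to 108 to 179 CPM in cone primed cells, where Opn1mw was at 0, and 127 to 185 CPM in untreated cells. "Cone" and "rod" below are therefore names of the treatments. At day 12 the summed rod markers spread from 19.9 to 1599 CPM within the rod group, replicate 2 being the highest. The data are from bulk RNA, in which fewer cells of a type and less RNA per cell cannot be told apart.

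Levels were first compared between the genes, as mean CPM per kilobase of exon over the 33 libraries. Slc6a6 was the most abundant of the 7 at 38.1 CPM per kilobase. Ado followed at 7.41 and Csad at 5.56, then Glrb at 2.02, Glra2 at 1.03, Cdo1 at 0.748 and Glra1 at 0.261 CPM per kilobase. This order is of means over all groups, and part of it turned with time. Within a library Ado gave 1.99 to 2.92 times the CPM per kilobase of Csad in untreated cells but 0.657 to 0.815 times in cone and 0.614 to 0.821 times in rod cells at day 35. Cdo1, the enzyme that oxidises cysteine in the first step of the main route, was the scarcest of the synthesis genes, with 0 to 42 counts per library. Glra1, the adult alpha subunit, had 3 counts or fewer in 17 of 33 libraries.

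Slc6a6, the taurine transporter, was lower in cells primed with taurine and retinoic acid and ended far higher in the same treatment. At day 0 it stood at 191, 329 and 260 CPM in untreated cells and at 201, 217 and 273 CPM in cone primed cells. The rod primed libraries gave 122, 116 and 160 CPM, all below every untreated and every cone primed library. Slc6a6 fell by 0.97 ± 0.22 (log2, SE) from untreated to rod primed cells, a 1.96-fold lower level (adjusted p = 0.00468 by edgeR's quasi-likelihood test). Without untreated replicate 2 the fall was 0.72 (log2 -0.72, adjusted p = 0.0678). In cone primed cells the difference from untreated was -0.18 ± 0.22 (log2, 95% interval -0.62 to 0.27). Cone primed cells were above rod primed cells by 0.79 ± 0.22 (log2, adjusted p = 0.0256), a call that was lost without cone primed replicate 3, rod primed replicate 1 or rod primed replicate 2 (adjusted p 0.0926 to 0.167). The summed Muller glia markers went in the opposite direction to Slc6a6. They were at 1104 to 1390 CPM in rod primed cells, against 433 to 535 CPM in untreated and 447 to 577 CPM in cone primed cells. Their part in the result was not tested.

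**Figure D1:**
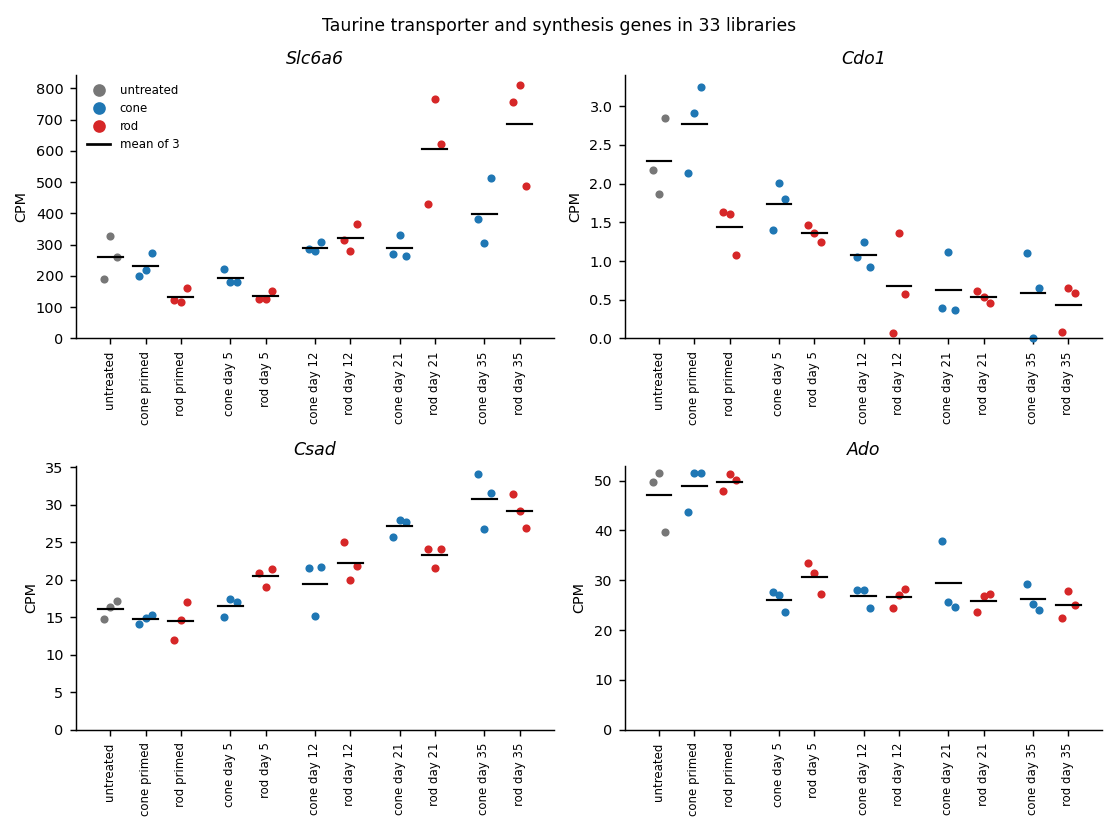
CPM of Slc6a6, Cdo1, Csad and Ado in each of the 33 libraries (points; grey untreated, blue cone, red rod), with the mean of the 3 libraries of each group as a black line. Slc6a6 was lowest in rod primed and rod day 5 cells, at means of 133 and 134 CPM, and highest in rod day 35 cells, at a mean of 684 CPM.

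By day 21 the order of the treatments had turned. At day 5 Slc6a6 was at 222, 180 and 182 CPM in cone cells and at 126, 126 and 151 CPM in rod cells, without overlap but short of the threshold (0.53 ± 0.22 log2, adjusted p = 0.134, and 0.00934 in the compared libraries alone). By day 12 the levels overlapped, at 285, 280 and 307 CPM in cone and 313, 281 and 367 CPM in rod cells, with a difference of -0.14 ± 0.22 (log2, 95% interval -0.58 to 0.30). Day 21 brought the rod libraries to 429, 766 and 621 CPM, above all cone libraries at 271, 332 and 264 CPM. The cone minus rod difference on day 21 was -1.07 ± 0.22 (log2, adjusted p = 0.00193), a level 2.1-fold higher in rod cells.

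At day 35 rod cells held 757, 809 and 487 CPM of Slc6a6 and cone cells 380, 304 and 512 CPM. Rod replicate 3 lay below cone replicate 3, so the groups overlapped. The difference was -0.78 ± 0.22 (log2, adjusted p = 0.0168), and the call was lost when cone day 35 replicate 1 or 2 or rod day 35 replicate 1 or 2 was left out (adjusted p 0.0621 to 0.0972), in a fit to the compared libraries alone (adjusted p = 0.091) and with voom (adjusted p = 0.0795). Whether the gap between treatments varied over time was itself tested, with an F test on 4 degrees of freedom over the 5 days, and the test passed for Slc6a6 (adjusted p = 0.000471). From rod priming to day 35 Slc6a6 rose 5.1-fold (2.36 ± 0.23 log2, adjusted p = 2.01e-09), all 3 libraries above all 3 primed ones, while between priming and day 5 the difference was 0.02 ± 0.22. In cone cells it rose 1.73-fold from priming to day 35 (0.79 ± 0.22 log2, adjusted p = 0.00277), a call lost without cone day 35 replicate 3 (0.54 log2, adjusted p = 0.0509). In the order of the 11 group means, rod day 35 and rod day 21 led and overlapped each other, and cone day 5 and rod day 5 were the only neighbours whose libraries did not overlap.

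Markers of other cell types differed between the treatments on these late days. Mesenchyme markers summed to 401 to 621 CPM in cone against 119 to 282 CPM in rod cells at day 21, and to 493 to 3603 against 213 to 701 CPM at day 35. Microglia markers summed to 11.8 to 34.8 CPM in cone against 0.541 to 2.09 CPM in rod cells at day 21, and to 13.9 to 75.8 against 0.765 to 1.46 CPM at day 35. Their part in the day 21 and day 35 results of Slc6a6 and of the receptor genes was not tested.

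Markers also moved within each treatment from priming to day 35. Of all genes, 31.1% were called higher and 26.5% lower in cone cells, and 29.4% and 26.2% in rod cells. Muller glia markers went from 447 to 577 CPM up to 3790 to 4656 CPM in cone cells and from 1104 to 1390 CPM up to 4282 to 7070 CPM in rod cells, with 5 of 6 called higher in cone and 4 of 6 in rod. Astrocyte markers went from 2.10 to 3.395 CPM up to 260 to 386 CPM in cone and from 8.95 to 13.9 CPM, with Aldh1l1 at 0, up to 334 to 409 CPM in rod cells, 5 of 5 called higher in each. Mesenchyme markers were at 1.57 to 7.80 CPM in cone primed cells, with Dcn at 0, and at 2.22 to 8.62 CPM in rod primed cells, and 6 of 6 were called higher at day 35 in each treatment. Cell cycle genes fell, 4 of 5 in cone and 5 of 5 in rod cells, from 742 to 1288 CPM down to 196 to 502 CPM and from 1533 to 1948 CPM down to 334 to 593 CPM. The part of these in the changes of the 7 genes from priming to day 35 was not tested.

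The 3 synthesis genes were called from priming to day 35 in both treatments, beside 57.7% of all genes in cone and 55.6% in rod cells. Between the treatments edgeR called 0 of the 3 on each of the 5 days, beside 7.27% to 12.3% of all genes. Cdo1, which lies on chromosome 18, was at 2.18, 1.87 and 2.85 CPM in untreated, 2.14, 2.91 and 3.25 CPM in cone primed and 1.63, 1.61 and 1.08 CPM in rod primed cells. By day 35 it was at 1.11, 0 and 0.646 CPM in cone cells and at 0.0850, 0.647 and 0.581 CPM in rod cells, below every primed library of the same treatment. Cdo1 fell by 2.22 ± 0.64 (log2, adjusted p = 0.00436) in cone cells and by 1.66 ± 0.68 (log2, adjusted p = 0.0414) in rod cells from priming to day 35. The rod call was lost without rod primed replicate 1, rod primed replicate 2 or rod day 35 replicate 1 (adjusted p 0.0864 to 0.149). Cone minus rod differences of Cdo1 lay between 0.24 and 0.95 (log2) on the 5 days, with intervals that all included 0.

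Csad, the decarboxylase that makes hypotaurine, went the other way. It stood at 14.1, 14.9 and 15.3 CPM in cone primed and 11.9, 14.6 and 17.1 CPM in rod primed cells. By day 35 it had reached 34.1, 26.7 and 31.6 CPM in cone cells and 31.4, 29.1 and 26.9 CPM in rod cells, all above the primed libraries. Csad thus rose 2.08-fold in cone (1.06 ± 0.14 log2, adjusted p = 2.02e-07) and 1.99-fold in rod cells (0.99 ± 0.14 log2, adjusted p = 7.17e-07). In rod cells Csad had already risen by day 5, to 20.9, 19.0 and 21.5 CPM (0.48 ± 0.14 log2, adjusted p = 0.0149), a call that was lost without a filter on low counts (adjusted p = 0.0574) and without rod primed replicate 1 or rod day 5 replicate 3 (adjusted p 0.0549 to 0.101). Cone cells at day 5 were at 15.0, 17.4 and 17.0 CPM, below all 3 rod libraries, but the cone minus rod difference did not pass with edgeR (-0.31 ± 0.13 log2, adjusted p = 0.156) and passed with voom (-0.33 log2, adjusted p = 0.0423).

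Ado, the dioxygenase that makes hypotaurine from cysteamine, dropped early and then stayed level. It was at 43.7, 51.5 and 51.5 CPM in cone primed and 47.9, 51.4 and 50.0 CPM in rod primed cells. At day 5 the cone libraries held 27.6, 27.0 and 23.7 CPM and the rod libraries 33.5, 31.5 and 27.2 CPM, none reaching a day 0 library. Ado fell by 0.91 ± 0.14 (log2, adjusted p = 3.67e-05) in cone and by 0.70 ± 0.14 (log2, adjusted p = 0.000762) in rod cells between priming and day 5. The falls to day 35 were 0.90 ± 0.14 in cone (log2 -0.90, adjusted p = 2.97e-06) and 0.99 ± 0.14 in rod cells (log2 -0.99, adjusted p = 9.03e-07). Over days 5 to 35 the mean cone minus rod difference of Ado was 0.00 ± 0.07 (log2, 95% interval -0.14 to 0.14), and that of Csad was -0.05 ± 0.07 (95% interval -0.19 to 0.09).

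Among the receptor genes, edgeR called Glra2, the alpha subunit of the developing nervous system, lower after rod priming. It stood at 8.96, 10.5 and 7.00 CPM in untreated and 9.82, 5.66 and 10.4 CPM in cone primed cells. Rod primed libraries held 3.53, 1.91 and 1.44 CPM, below all 6 of the others at day 0. Glra2 fell 3.93-fold from untreated to rod primed cells (-1.97 ± 0.63 log2, adjusted p = 0.0442), but the call was lost on leaving out any 1 of the 6 libraries (adjusted p 0.0502 to 0.202). Cone primed against untreated, it differed by -0.04 ± 0.58 (log2). Glrb was also lower in all 3 rod primed than in all 3 untreated libraries, at means of 4.24 and 6.45 CPM, short of the threshold (-0.61 ± 0.27 log2, adjusted p = 0.148), and whether the 2 genes differed in this was not tested. The cone minus rod difference at day 0 was 1.93 ± 0.63 (log2, adjusted p = 0.0623), short of the threshold here and past it without a filter on low counts, with the replicate block, in the compared libraries alone, with DESeq2 and with voom (adjusted p 0.00059 to 0.0438).

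**Figure D2:**
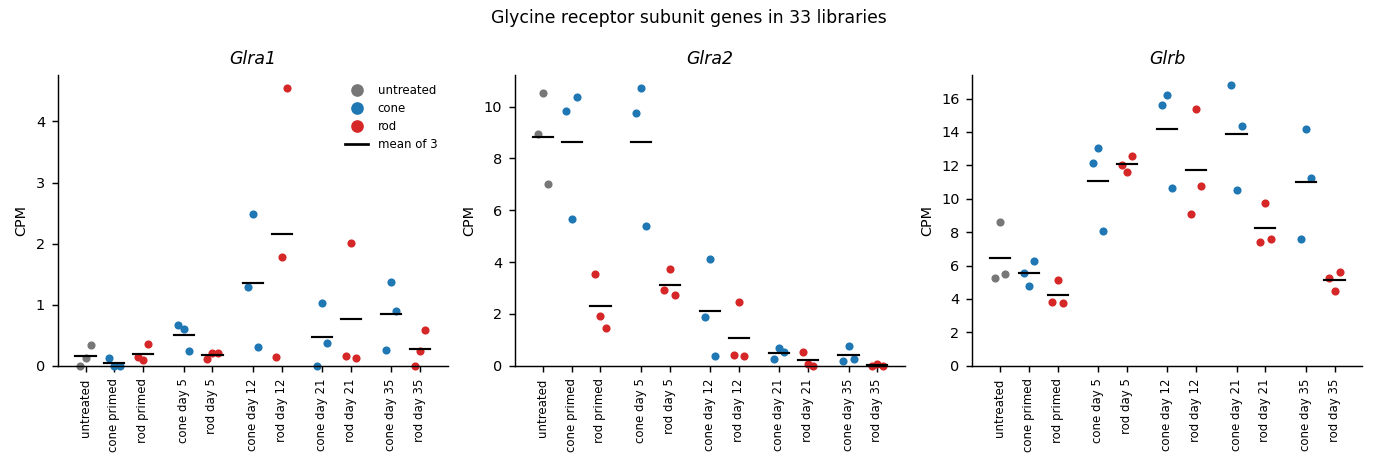
CPM of Glra1, Glra2 and Glrb in each of the 33 libraries (points; grey untreated, blue cone, red rod), with group means as black lines. Glra2 was near 8.6 CPM in cone primed and cone day 5 cells and at 0.395 CPM or below, as a mean, in both treatments at day 35, while Glrb at day 35 averaged 11.0 CPM under cone and 5.11 CPM under rod treatment.

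Glra2 then fell in both cultures. At day 5 it was still at 9.75, 10.7 and 5.41 CPM in cone cells, and at 2.92, 3.72 and 2.71 CPM in rod cells, without overlap. The difference did not pass with edgeR on all libraries (1.46 ± 0.60 log2, adjusted p = 0.133), and passed in the compared libraries alone (adjusted p = 0.00574) and with voom (adjusted p = 0.00629). By day 12 the cone libraries held 1.87, 4.12 and 0.387 CPM and the rod libraries 0.428, 2.46 and 0.361 CPM, with replicate 2 the highest on both sides, and voom alone called the difference (adjusted p = 0.0263). At day 35 Glra2 had 2, 9 and 3 counts in cone cells and 0, 1 and 0 counts in rod cells.

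From priming to day 35 Glra2 fell 21.3-fold in cone cells (-4.41 ± 0.76 log2, adjusted p = 1.59e-05). In rod cells the fall was also called (adjusted p = 0.000112), and the 61 counts in 3 primed libraries against 1 count in 3 day 35 libraries gave a ratio of 85.0 with an exact 95% counting interval of 14.7 to 3410. Between the treatments at day 35, 14 counts against 1 gave a ratio of 15.5 (interval 2.36 to 656), and edgeR's test did not pass (adjusted p = 0.134) while DESeq2's did (adjusted p = 0.0481). These intervals cover counting error only. Over the mean of days 5 to 35 Glra2 was higher in cone cells by 1.81 ± 0.50 (log2, adjusted p = 0.00745). Without day 35 the mean difference was 1.25 ± 0.45 (adjusted p = 0.0519), and without rod day 12 replicate 2 it was 2.17 ± 0.46 (adjusted p = 0.000687), both alternatives chosen after seeing the data.

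**Figure D3:**
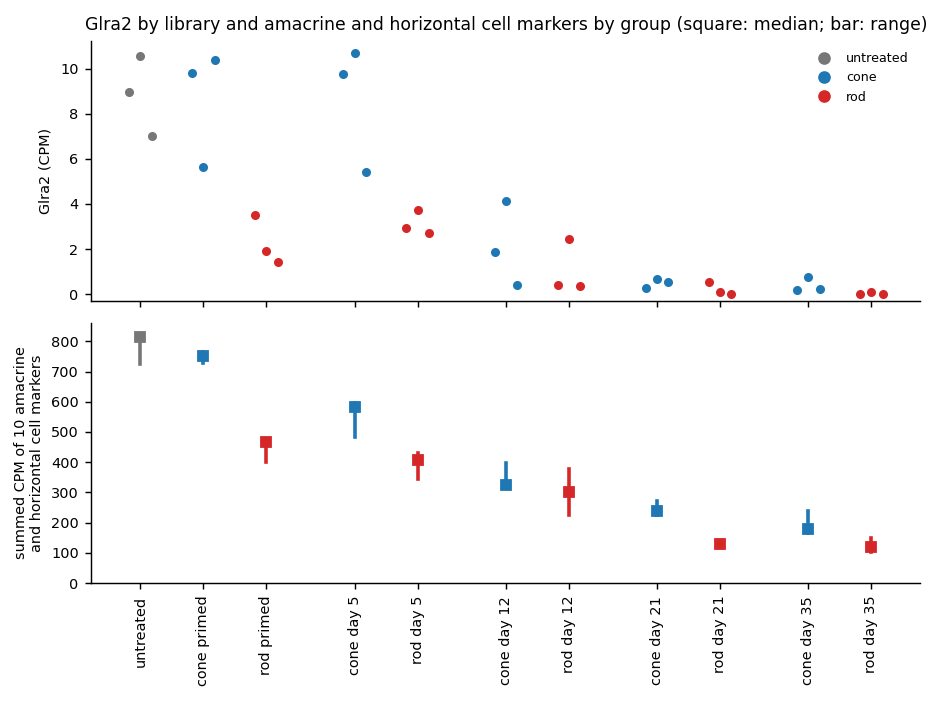
Top: CPM of Glra2 in each library, by group. Bottom: summed CPM of 10 amacrine and horizontal cell markers, as the median (square) and range (bar) of 3 libraries. Both were lower in rod primed cells than in the other day 0 groups. Both were lowest in rod day 35 cells, whose libraries overlapped those of rod day 21.

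Amacrine cells, inhibitory interneurons that carry glycine and GABA receptors, were followed together with horizontal cells, by 10 markers pooled over both types. These summed to 725 to 825 CPM in untreated, 729 to 766 CPM in cone primed and 401 to 472 CPM in rod primed cells. At day 35 they summed to 166 to 239 CPM in cone and 102 to 150 CPM in rod cells, with Lhx1 at 0 in rod. Of the 10 markers 2 were called lower in rod primed than in untreated cells, beside 3.56% of all genes. Over the mean of days 5 to 35 cone cells were higher for 5 and lower for 1, beside 15.6% and 12.2% of all genes. Ganglion cell markers, 7 in all, summed to 177 to 300 CPM in untreated and 55.6 to 150 CPM in rod primed cells. The part of these cell types in the Glra2 result was not tested.

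Glrb, the beta subunit, rose early in both treatments while Glra2 did not. It stood at 5.54, 4.77 and 6.29 CPM in cone primed and 3.80, 5.14 and 3.77 CPM in rod primed cells. By day 5 it had reached 12.2, 13.0 and 8.08 CPM in cone and 12.0, 11.6 and 12.6 CPM in rod cells, all above the primed libraries. The rise was 2.01-fold in cone (1.00 ± 0.25 log2, adjusted p = 0.00542) and 2.84-fold in rod cells (1.50 ± 0.26 log2, adjusted p = 0.000241). Later the treatments parted. At day 21 cone cells held 16.8, 10.5 and 14.4 CPM and rod cells 7.41, 9.73 and 7.56 CPM (0.75 ± 0.25 log2, adjusted p = 0.0549, and 0.0386 with the replicate block).

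At day 35 Glrb was at 7.60, 14.2 and 11.2 CPM in cone and 5.27, 4.45 and 5.62 CPM in rod cells, again without overlap. Cone cells were 2.15-fold higher (1.10 ± 0.25 log2, adjusted p = 0.00401). Against the primed cells Glrb had risen in cone cells (0.99 ± 0.26 log2, adjusted p = 0.00164), and in rod cells the difference was 0.27 ± 0.27 (log2, adjusted p = 0.41). Over the mean of days 5 to 35 cone cells were higher by 0.50 ± 0.12 (log2, adjusted p = 0.0029), a difference of 0.30 ± 0.14 without day 35 (adjusted p = 0.144) and 0.42 without replicate 1 of every group (adjusted p = 0.0636). The test of a change of that difference with day did not pass for Glrb (adjusted p = 0.109).

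Set against each other within a library, Glra2 gave 1.81 to 2.52 times the CPM per kilobase of Glrb in untreated cells, 1.75 to 2.62 times in cone primed cells and 0.551 to 1.37 times in rod primed cells. At day 5 the ratio was 0.989 to 1.22 in cone and 0.318 to 0.474 in rod cells. At day 35 it was 0.0319 to 0.0806 in cone cells. From untreated and cone primed cells the alpha message went from above the beta message to a small part of it, while in rod primed cells it was already below it in most libraries, with a median ratio of 0.563.

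Glra1 had few counts in most libraries. The 3 libraries of cone primed cells held 1, 0 and 0 counts, untreated cells 0, 2 and 5, and rod primed cells 1, 1 and 4. Its highest libraries were at day 12, with 11, 32 and 4 counts in cone cells and 2, 26 and 63 counts in rod cells, a wide spread within each group. From cone priming to day 35 Glra1 was called (adjusted p = 0.0311), on 30 counts against 1 in 3 libraries each, a ratio of 25.1 with a counting interval of 4.16 to 1020. That call was lost with voom (adjusted p = 0.0706) and without cone primed replicate 2 or 3 or cone day 35 replicate 2 or 3 (adjusted p 0.0545 to 0.106), and no cone minus rod difference of Glra1 passed.

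**Figure D4:**
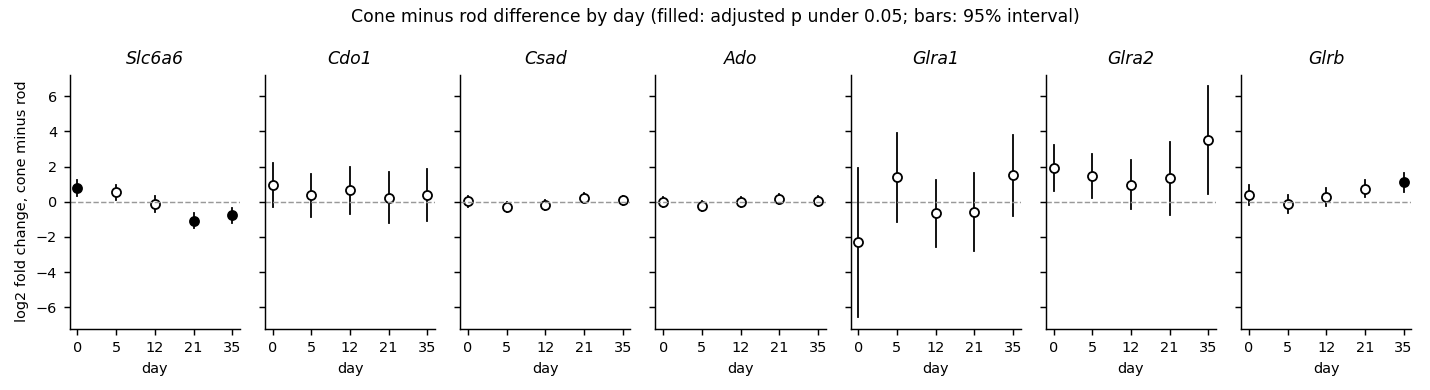
Cone minus rod difference (log2 fold change) of each of the 7 genes at days 0, 5, 12, 21 and 35, with 95% intervals as bars. Filled points passed an adjusted p of 0.05. Slc6a6 went from 0.79 at day 0 to -1.07 at day 21, Glrb reached 1.10 at day 35, and the intervals of Glra1 and Glra2 were the widest.

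Counts of called genes were read against the share of all 18150 genes called. Rod priming against untreated cells called 2 of the 7 genes, both lower (Slc6a6 and Glra2), where 10.3% of all genes were called, 6.71% higher and 3.56% lower. Cone priming called 0 of 7, with 0 at an unadjusted p under 0.05, in a comparison that called 0.0% of all genes (0 genes, 200 at an unadjusted p under 0.05, and 0 by DESeq2 and by voom). Between cone and rod cells at day 0, 1 of 7 was called, higher in cone, beside 7.27% of all genes (2.5% higher, 4.77% lower). On day 5 it was 0 of 7 by edgeR, beside 9.28% of all genes (3.48% higher, 5.8% lower). At an unadjusted p under 0.05 it was 3 of 7, beside 4115 of the 18150 genes, and voom called 2 of 7, beside 3371 genes. On day 12 edgeR again called 0 of 7, beside 10.1% (5.98% higher, 4.12% lower). At an unadjusted p under 0.05 it was 0 of 7, beside 4142 genes, and voom called 1 of 7, beside 4146 genes. DESeq2 called 0 of 7 on both days, with its shares of all genes not given here. On day 21 edgeR called 1 of 7, lower in cone, beside 9.0% (5.86% higher, 3.14% lower). On day 35 it called 2 of 7, 1 in each direction, beside 12.3% (7.77% higher, 4.51% lower).

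Averaged over days 5 to 35, 3 of 7 were called, 2 higher and 1 lower in cone cells, beside 27.8% of all genes (15.6% higher, 12.2% lower). The 1 lower was Slc6a6 (-0.36 ± 0.11 log2, adjusted p = 0.012), for which the mean covers opposite signs at day 5 and day 21, and whose call was lost without replicate 2 of every group (-0.28 log2, adjusted p = 0.108). Without day 35, 0 of 7 were called by edgeR over the mean. The share of all genes called in that fit is not given here, so this count has no background beside it. From priming to day 5, 2 of 7 were called in cone cells, 1 in each direction, beside 22.3% of all genes (12.2% higher, 10.2% lower). In rod cells over the same days it was 3 of 7, 2 up and 1 down, beside 17.5% (8.76% higher, 8.79% lower). From priming to day 35, 7 of 7 were called in cone cells, 4 up and 3 down, beside 57.7% of all genes (31.1% higher, 26.5% lower). In rod cells it was 5 of 7, 2 up and 3 down, beside 55.6% (29.4% higher, 26.2% lower). The cone and the rod series each use their own primed cells. The change with day was called for 1 of 7, beside 9.22% of all genes (1674 genes, and 772 without replicate 1 of every group and 54 without replicate 3 of every group).

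**Figure D5:**
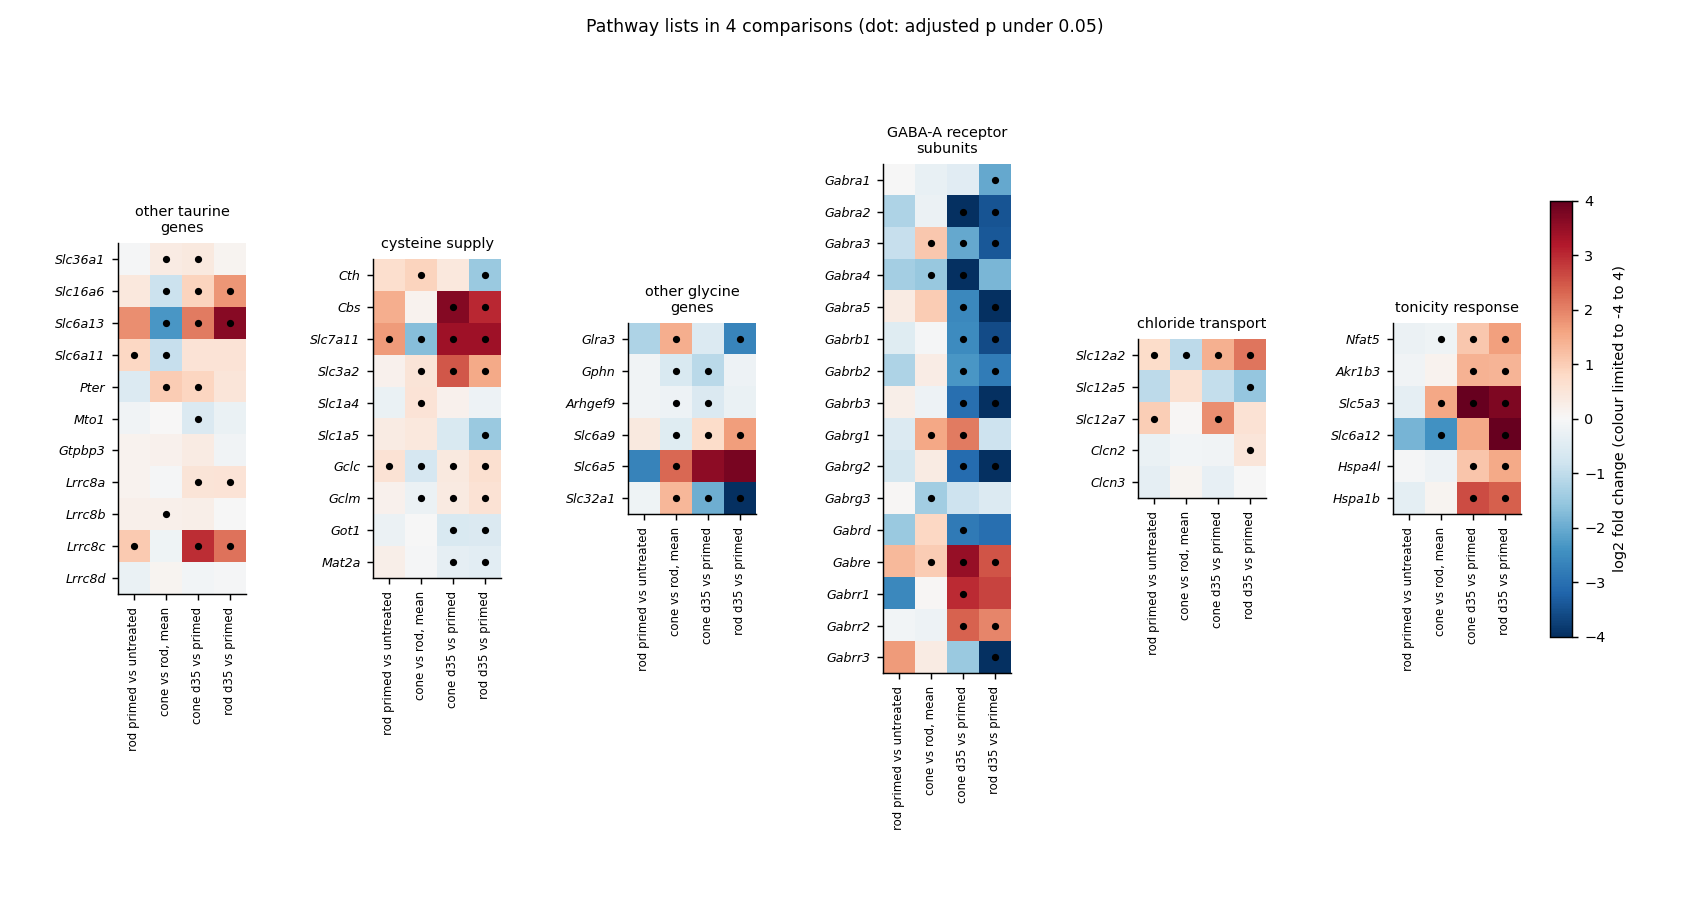
log2 fold change of the genes reported from 6 lists (1 panel each, genes in rows) in 4 comparisons (columns), red higher and blue lower in the first-named group, with colour limited to -4 to 4. Black dots mark an adjusted p under 0.05. The GABA-A receptor list was mostly lower at day 35 than in primed cells of the same treatment. All 6 tonicity genes were called higher in rod day 35 than in rod primed cells, beside 29.4% of all genes.

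Other genes of the taurine pathway formed a list of 15, of which 11 were tested. Over the mean of days 5 to 35, 6 of 11 were called, 3 in each direction, beside 27.8% of all genes, with a median difference of 0.01 (log2) beside 0.01 over all genes. Pter, which splits N-acetyltaurine, was higher in cone cells by 1.00 ± 0.16, followed by the transporter gene Slc36a1 (0.34 ± 0.07). Slc6a13, a GABA transporter that also carries taurine, was lower in cone cells by far (-2.33 ± 0.26), and so was Slc6a11 (-0.92 ± 0.12), another transporter of that family. Slc6a13 was at 24.3 ± 10.3 CPM in rod and 1.04 ± 0.39 CPM in cone cells at day 35 (SD, n = 3), from 1.97 ± 0.89 CPM in rod primed cells. Gadl1, which has been linked to beta-alanine and taurine synthesis, was not tested, with at most 7 counts in a library.

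From priming to day 35, 7 of 11 were called in cone cells, 6 up, beside 57.7% of all genes, and 4 of 11 in rod cells, 4 up, beside 55.6%. The medians were 0.52 and 0.50 (log2) beside 0.03 and 0.04 over all genes. The volume-regulated channel subunit Lrrc8c rose in both (2.94 ± 0.26 and 2.17 ± 0.25), Slc6a13 rose by 2.08 ± 0.79 in cone and 3.65 ± 0.51 in rod cells, and the 1 gene called lower was Mto1 in cone cells (-0.57 ± 0.15). Slc6a13 was near the floor in some libraries, with 3 counts or fewer in 3 of 33. Rod priming raised 2 of 11, beside 6.71% of all genes called higher, Lrrc8c (1.05 ± 0.26) and Slc6a11 (0.84 ± 0.25). These last 2 were chosen after their values were seen.

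Genes that supply cysteine, the precursor of taurine, were a list of 10. Over the mean of days, 6 of 10 were called, beside 27.8% of all genes: Cth, which makes cysteine, was higher in cone cells (0.90 ± 0.11), as was Slc1a4 (0.55 ± 0.11). Lower in cone cells were Slc7a11, the cystine importer (-1.70 ± 0.22), and Gclc (-0.67 ± 0.07), which spends cysteine on glutathione. Both Slc7a11 (1.70 ± 0.50) and Gclc (0.59 ± 0.15) had also been raised by rod priming, the 2 of 10 called there, beside 10.3% of all genes. By day 35, 7 of 10 were called in cone cells, beside 57.7% of all genes, led by Cbs (3.67 ± 0.41) and Slc7a11 (3.38 ± 0.50) upward and by Got1 (-0.62 ± 0.22) and Mat2a (-0.35 ± 0.11) downward. In rod cells 9 of 10 were called, 5 up and 4 down, beside 55.6%, with Slc7a11 (3.38 ± 0.46) and Cbs (3.02 ± 0.37) ahead and Cth (-1.50 ± 0.23) and Slc1a5 (-1.47 ± 0.34) lowest. The list medians were 0.06 (log2) over the mean of days, 0.37 in cone and 0.18 in rod cells.

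The other glycine genes, 7 in the list and 6 tested, were called in 6 of 6 cases over the mean of days, 3 in each direction, beside 27.8% of all genes, with a median of 0.57 (log2). Slc6a5, a glycine transporter, was higher in cone cells (2.28 ± 0.64), as was the alpha subunit gene Glra3 (1.45 ± 0.41). Gphn, which encodes gephyrin, was lower in cone cells (-0.60 ± 0.06), and so was Slc6a9, another glycine transporter (-0.48 ± 0.10). Of the exonic bases of Slc6a9, 30.2% are shared with other genes. Without day 35, 1 of the 6 was called over the mean, and without rod day 12 replicate 2 it was 5 of 6. Both alternatives were chosen after seeing the data, and their shares of all genes called are not given here. Slc6a5 had 0, 67 and 3 counts in the rod libraries of day 12, so that replicate 2 alone held nearly all of them.

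By day 35 Slc6a9 was at 125.6, 82.5 and 97.5 CPM in rod and 39.9, 45.6 and 49.2 CPM in cone cells, without overlap (-1.18 ± 0.20 cone minus rod, adjusted p = 0.000242). It had risen from priming in rod (1.67 ± 0.21) and in cone cells (0.73 ± 0.21). Gphn fell in cone cells to 18.2, 21.0 and 22.3 CPM (-1.09 ± 0.12) and was at 38.2, 33.5 and 33.3 CPM in rod cells. Slc32a1, the vesicular transporter that loads glycine and GABA, fell in both treatments (-1.95 ± 0.62 in cone, -5.34 ± 0.83 in rod). Glra3 had 10 counts in rod primed and 2 in rod day 35 libraries, a ratio of 6.97 (interval 1.48 to 65.4). The list medians from priming were -0.57 in cone and -0.23 in rod cells. Glra4 was not tested, with at most 5 counts in a library.

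GABA-A receptor subunits, chloride channels of the same family as the glycine receptor, were 19 in the list and 16 tested. Averaged over days 5 to 35, 5 were called, beside 27.8% of all genes, with Gabrg1 (1.55 ± 0.32) and Gabra3 (1.07 ± 0.30) higher and Gabra4 (-1.51 ± 0.53) and Gabrg3 (-1.39 ± 0.19) lower in cone cells. Without day 35, 2 were called, and the share of all genes in that fit is not given here. From priming to day 35, 13 of 16 were called in cone cells, 9 of them lower, beside 57.7% of all genes with 26.5% lower. In rod cells it was 11 of 16, also 9 lower, beside 55.6% with 26.2% lower. The medians were -2.18 and -2.90 (log2) beside 0.03 and 0.04 over all genes. With Gabra5 set to its bound the rod median was -2.43. In cone cells Gabra2 (-4.26 ± 0.50) fell most after Gabra4, whose 136 counts against 2 gave a ratio of 81.4 (interval 22.1 to 679). Gabre (3.48 ± 0.56) and Gabrr1 (3.00 ± 1.25) rose most there, Gabrr1 from 4 counts in 3 cone primed libraries. In rod cells Gabra5 was at 0 in all day 35 libraries, at least 4.2-fold lower than in primed cells against a floor of 3 counts per library, and Gabrr3 fell by 4.63 ± 0.88, while Gabre (2.53 ± 0.55) and Gabrr2 (1.94 ± 0.67) rose. The amacrine and horizontal cell markers fell with them, 8 of 10 in cone and 10 of 10 in rod cells, beside 26.5% and 26.2% of all genes called lower, and their part was not tested.

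Chloride transporters set the gradient that these channels use. Of 6, Slc12a2, the sodium, potassium and chloride importer, was the 1 called over the mean of days, lower in cone cells (-1.03 ± 0.07), beside 27.8% of all genes. It was raised by rod priming (0.74 ± 0.14), as was Slc12a7 (0.97 ± 0.26), 2 of 6 called, beside 10.3% of all genes. From priming to day 35 Slc12a2 rose by 2.15 ± 0.15 in rod and 1.41 ± 0.15 in cone cells, reaching 345 ± 22 and 139 ± 12 CPM (SD, n = 3). Slc12a5, the exporter of mature neurons, fell in rod cells (-1.54 ± 0.57), Clcn2 rose there (0.47 ± 0.19), and in cone cells Slc12a7 rose (1.87 ± 0.26). The list medians were 0.03, 0.23 and -0.22 (log2) in these 3 comparisons (mean of days, rod and cone).

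The tonicity list held 6 genes that cells use to take up osmolytes such as taurine or to respond to salt, Slc6a6 itself being a known target of this response. Averaged over days 5 to 35, 3 of 6 were called, beside 27.8% of all genes: Slc5a3, the myo-inositol transporter, was higher in cone cells (1.54 ± 0.11), and Slc6a12, the betaine transporter (-2.41 ± 0.47), and the factor gene Nfat5 (-0.18 ± 0.06) were lower. At day 35, 5 of 6 had risen in cone and 6 of 6 in rod cells from priming, beside 31.1% and 29.4% of all genes called higher, with medians of 1.47 and 2.01 (log2). Slc5a3 led in cone cells (4.67 ± 0.26), followed by Hspa1b (2.61 ± 0.47), from 56.1 ± 4.7 to 1427 ± 271 CPM for Slc5a3 (SD, n = 3). In rod cells Slc6a12 went from 0 in all primed libraries to 7.82 CPM, at least 24.0-fold higher against a floor of 3 counts per library, and Slc5a3 rose by 3.73 ± 0.25.

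Genes with the most similar pattern were sought over the 11 group means, among genes whose mean log2 CPM was 1 or more, as a description in which the points share libraries and days. Among the genes closest to Slc6a6 were Plcl1 (Pearson r 0.97) and Tgm2 (0.96). Csad was closest to Stim1, Nol6 and Aldh6a1 (0.98 each), Ado to Eif4g2 (0.99), Ptma and Hist1h4h (0.98 each), and Cdo1 to Alkbh4, Nefm and Zfhx2 (0.97 to 0.98). Glra2 was closest to Ist1, Pcnxl2 and the noncoding Rmst (0.99 each), Glrb to Rasgrf1 (0.95), Arhgef4 and Tshr, and Glra1 to Mthfd1l (0.91), Csnk1g1 and Ap1s3. Between the 7 genes the highest correlation was 0.95, between Glra2 and Cdo1, and the lowest -0.91, between Csad and Cdo1.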

How the data were processed

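Read count tables deposited by the authors, 1 per library, hold unnormalised counts for 47729 genes and 5 summary lines, which were left out. Per the submitters' processing notes, HISAT2, StringTie, HTSeq and build GRCm38 were used. Per the file headers, the other deposited tables hold TPM, FPKM and coverage (a read signal). FPKM and coverage were not used. TPM served as an alternative only: over 12015 genes with a mean count of at least 50, its Spearman correlation with counts was 0.347 to 0.492 within a library, and 23.0% to 42.2% of these genes were listed at TPM 0. Genes took 26.9% to 34.9% of counted reads.

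Groups followed the labels. Genes were filtered with filterByExpr (minimum count 10) and scaled by TMM. All 33 libraries entered 1 quasi-likelihood model (edgeR 4.0.16, R 4.3.3), and calls required an adjusted p (Benjamini-Hochberg, over 18150 genes) under 0.05. The steps were tested on simulated data. Exonic lengths came from GENCODE M21. Reads carry no molecular identifiers, so intervals and floors cover counting error only.

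The 7 genes and all lists were chosen with earlier results of these data known. Named were the 7 genes, fixed glycine and taurine genes, and in each pathway list the 2 largest called rises and falls in the mean of days and the day 35 comparisons. Other genes, such as those called in rod priming, were chosen after their values were seen. A few genes picked this way, or by likeness of pattern, are left unreported. Alternatives were RLE scaling, no filter, DESeq2 1.42.0, voom (limma 3.58.1), compared libraries only, a replicate block, limma on log2(TPM + 1) and leaving out each library of the compared groups. For the mean of days and the change with day, all libraries of 1 replicate number were left out together instead.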

Additional observations from a re-analysis of the deposited data

Results flagged for a closer look

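The cone minus rod difference of Slc6a6 differed between the days of culture (adjusted p = 0.000471 by an F test in edgeR). Cone cells were 0.79 above rod cells at day 0 (log2) and 1.07 below at day 21 (log2 -1.07). All 3 cone libraries were higher at day 0, and all 3 were lower at day 21.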

How the results depend on the processing

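Leaving out 1 library, or all libraries of 1 replicate number, kept the side of the threshold in 491 gene results, while 26 lost and 1 gained a call. Under the other alternatives 556 were kept, 21 lost, 15 gained and 8 reversed. Results called in neither fit were counted as kept whatever their direction, and some of them changed sign. The cone minus rod difference of Cdo1 on day 21, for example, ran from -0.50 to 0.55 (log2) over the fits without 1 replicate. The cause of these changes was not tested. The number of the 7 genes called ranged, over the fits without 1 replicate, from 0 to 1 for rod primed against untreated cells and for cone against rod cells on day 0, from 1 to 2 on days 21 and 35, from 2 to 3 over the mean of days, from 5 to 7 for cone and 4 to 5 for rod cells from priming to day 35, and from 2 to 3 for rod cells to day 5. In the compared libraries alone it was 2 on days 0 and 5 and 1 on day 35. With DESeq2 it was 2 on days 0 and 21. With voom it was 2 on days 0 and 5, 1 on days 12 and 35, and 3 on day 21. Without a filter it was 2 on day 0. Over days 5, 12 and 21, an average chosen after seeing the data, it was 0, with the share of all genes not given here.

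Counts over all genes moved by more than 1.5 times in some fits. In the compared libraries alone, 2912 genes were called for rod priming (1864 before), and 2084, 2780, 363 and 1456 between cone and rod cells on days 0, 5, 12 and 35 (1320, 1685, 1833 and 2229 before). Voom called 3768 for rod priming, 3200, 3371, 4146 and 3699 on days 0, 5, 12 and 21 (1633 before on day 21), 4896 for rod cells to day 5 (3185 before) and 4758 for the change with day, for which DESeq2 called 2856 (1674 before). Leaving out 1 library also moved counts. For rod priming it was 985 without untreated replicate 2, 1225 without untreated replicate 3 and 829 without rod primed replicate 3. Between treatments on day 0 it was 756 and 573 without cone primed replicates 1 and 3 and 577 without rod primed replicate 3. On day 5 it was 969 and 1051 without cone replicates 1 and 2 and 891 without rod replicate 1, on day 12 986 and 1139 without replicate 3 of cone and of rod cells, on day 21 959 and 952 without rod replicates 2 and 3, and on day 35 1460 without rod replicate 1. It was 2419 for cone cells to day 5 without cone primed replicate 2 (4056 before) and 1950 for rod cells to day 5 without rod day 5 replicate 2. For the mean of days and the change with day, all libraries of 1 replicate number were left out together, in all 11 groups. Those fits called 2574 genes over the mean of days without replicate 3 (5048 before). For the change with day they called 772 without replicate 1 and 54 without replicate 3. Of the genes called for rod priming 65.3% were higher, and 52.8% in the compared libraries and 53.6% with voom; on day 0 between treatments the share was 34.4%, 51.8% and 46.9%.

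With limma on TPM 0 of the 7 genes were called in the comparisons tried, and 8 results called from the counts reversed direction. These were Ado (0.274 log2) and Glrb (-0.0254) in cone cells to day 5, Cdo1 (0.115), Ado (0.374) and Glrb (-0.118) in cone cells to day 35, Ado (0.219) and Glrb (-0.0678) in rod cells to day 5, and Ado (0.0362) in rod cells to day 35. Glra2 was listed at TPM 0 in all 33 libraries, so no TPM value could be given. Over all genes this fit called 42 for rod priming, 7 for cone priming, 27, 192, 132, 41 and 30 between treatments on days 0, 5, 12, 21 and 35, 285 over the mean of days 5 to 35, 1303 and 976 in cone and 843 and 720 in rod cells to days 5 and 35, and 48 for the change with day.

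Samples were not paired by replicate number in the main fit. The 33 correlations of same-numbered libraries ran from -0.226 to 0.513 and passed 0.1 throughout in 0 of 11 comparisons. With 3 libraries per group, these correlations cannot show whether same-numbered libraries shared a litter or culture. With the replicate block 2 of the 7 genes were called on day 0 and 2 on day 21.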
